A study of Zea mays with 28 samples.

Results

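The genes described here are 30 of the 39625 annotated maize genes whose messenger RNA was strongly lower 2 h after mechanical wounding of a leaf. They were selected on measured values of these same libraries. Levels as counts per 1000000 counted reads (CPM) were taken from the library totals, and D was the log2 of a group's mean CPM plus 1 minus the same quantity in the control leaves. A gene was kept where D was -2 or lower at 2 h of wounding, above -1 at 24 h of *T. urticae*, and below 0.75 at 24 h of *O. pratensis* and of *T. urticae*. In all, 65 genes reached the wounding threshold, and 35 of them were left out. Of these, 31 had D of -1 or lower at 24 h of *T. urticae*, and 4 had D of 0.75 or higher with a mite at 24 h. Most of the 30 kept genes were also below control at 24 h of *T. urticae*, at a median of 54.3% of the control mean. The lower levels at 2 h of wounding, and the limits on a fall or a rise with mites at 24 h, are therefore what chose the genes. They are given as a description, and calls printed for these comparisons describe the chosen genes and test nothing further. The 4 other comparisons were not used for the choice, although all but one of them share its control leaves.

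The study compared how maize responds to the grass specialist spider mite *Oligonychus pratensis*, the generalist *Tetranychus urticae* and mechanical damage. RNA was taken from the enclosed part of leaf 4 of B73 plants, an inbred line, at an age of 22 days, in 7 groups of 4 leaves, each leaf from a separate plant. Control leaves carried the same enclosure and no mites. The *O. pratensis* and *T. urticae* leaves received 400 adult female mites for 2 h or 200 for 24 h, so that mite number and time cannot be told apart. Wounded leaves were damaged with 60 grit sandpaper, pressed or rubbed on the leaf according to different sources of the study, and collected 2 h or 24 h later, with no mites. The treatments were staggered so that every leaf was harvested at one time, 3 h into the light period, and a single set of 4 control leaves serves both times. One inbred line was used, and the RNA came from whole leaf tissue. A lower value can thus reflect less RNA per cell or fewer of the cells that express the gene, and these cannot be told apart.

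When a plant cell is torn, damage signals released from it, with calcium and electrical signals that travel through the leaf, set off a rapid burst of jasmonate synthesis. The hormone removes repressors from transcription factors that then switch on defence genes, and at the same time transcripts of many genes for growth and housekeeping become less abundant. The level of a transcript reflects both how fast it is made and how fast it is degraded, so it can decline within hours only where existing messages are removed on that time scale. Spider mites pierce single mesophyll cells with a stylet and empty them.

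Library totals ranged from 14721310 to 32891100 counted reads, and the 4 libraries at 2 h of wounding held 26216004 to 27928077. Log-scale profiles of leaves of one group correlated at 0.979 to 0.992 across genes, and no 2 libraries were identical. Mature leaf markers were abundant in all 28 libraries, with the mesophyll phosphoenolpyruvate carboxylase gene pep1 (GRMZM2G083841) at 9615 to 23412 CPM, the bundle sheath malic enzyme gene me3 at 3642 to 10614 CPM and the Rubisco small subunit gene ssu1 at 1250 to 3987 CPM. A second gene matched to the name pep1, GRMZM5G899080, had only 0.97 to 3.54 CPM. The meristem gene kn1 and the endosperm zein gene zp16 had no reads in any library. All CPM values in the text were scaled by TMM, edgeR's correction of the library totals. TMM moved the median gene at 24 h relative to the totals used for D, by 0.12 on the log2 scale for wounding, 0.14 for *O. pratensis* and 0.21 for *T. urticae*, and changes are given relative to that median.

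The 30 genes were moderately to highly expressed in undisturbed leaves. Their mean control level was 8.97 to 408 CPM, with a median of 33.7 CPM, which placed them between the 49.6th and the 98.5th percentile of the 22339 genes tested. The constant added to CPM in D keeps weakly expressed genes from reaching the threshold, so the lower end is partly set by the choice. All 30 of the chosen genes were among those tested, and the fewest reads of any of them in any library was 7. After 2 h of wounding they stood at 8.94% to 21.9% of the control mean, with a median of 18.8%. D ran from -2.70 to -2.01, and the fitted log2 fold change from -3.48 to -2.19 with a median of -2.41. All 30 were called lower there, against 8.47% of all tested genes, and in 29 of the 30 each wounded leaf lay below each control leaf, against 23% of all tested genes. Both counts follow from the choice of the genes.

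**Figure D1:**
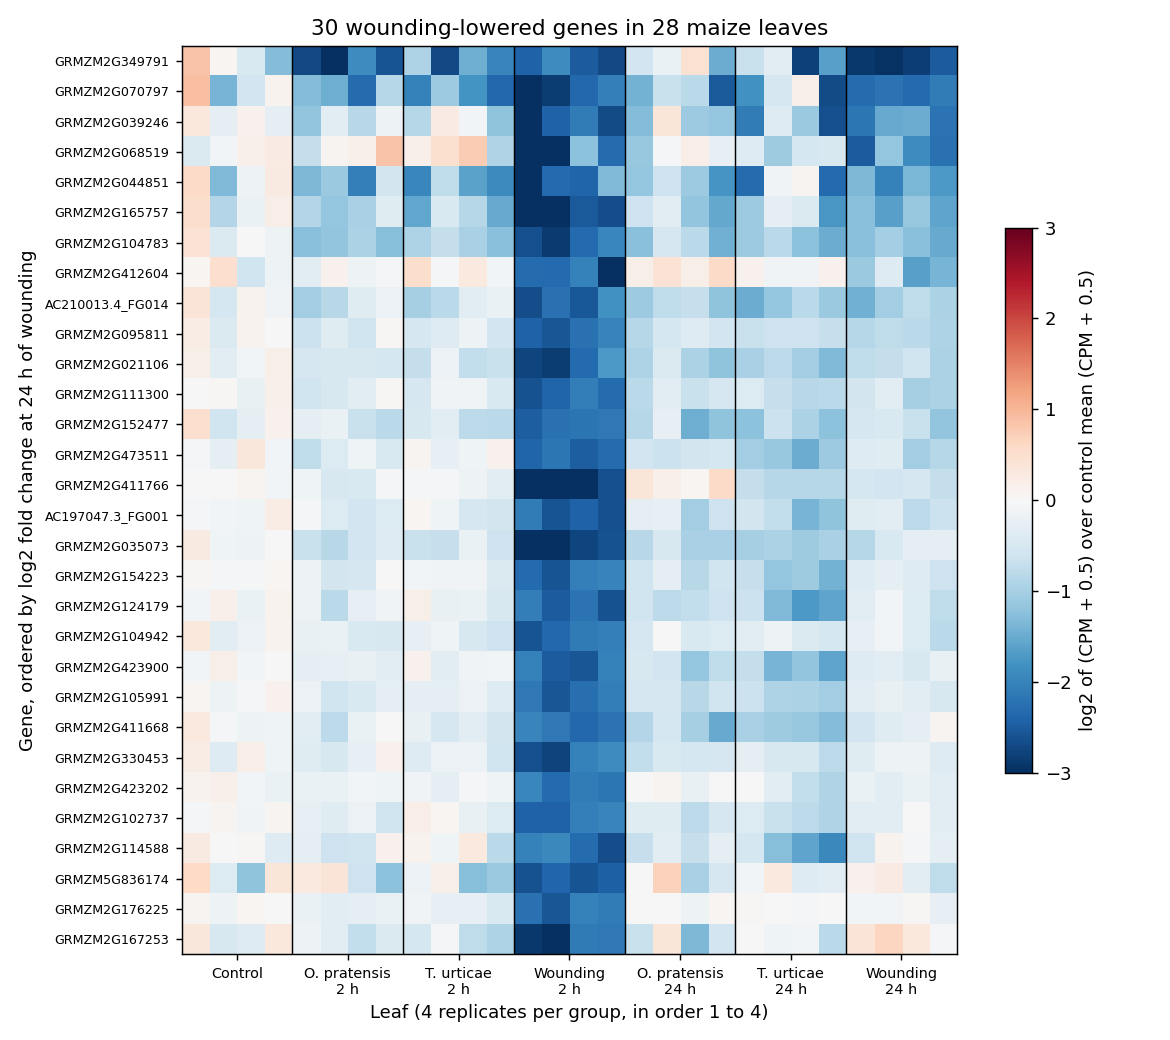
Heat map of the 30 genes (vertical axis, ordered by their log2 fold change at 24 h of wounding) in the 28 leaves (horizontal axis, 4 replicates in each of 7 groups); color gives log2 of CPM plus 0.5 over the control mean plus 0.5. The 4 leaves at 2 h of wounding are dark blue in nearly every gene, with leaf medians of -2.53 to -2.15, and at 24 h of wounding the genes at the top stay blue while those at the bottom are near white.

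The most abundant of the genes were low in each leaf wounded for 2 h, but differed in how much their leaves varied. GRMZM2G154223 had 415, 399, 396 and 423 CPM in control leaves 1 to 4 and 80.1, 67.0, 98.8 and 101 CPM in the leaves wounded for 2 h, 21.3% of the control mean. Its control leaves had a coefficient of variation of 3.19%, the smallest among the 30 genes. GRMZM2G412604 had 373, 506, 236 and 323 CPM in the controls and 72.6, 70.7, 88.5 and 40.2 CPM at 2 h of wounding. GRMZM5G836174 was far more variable between control leaves, at 439, 218, 125 and 372 CPM, yet its 4 leaves at 2 h of wounding lay close together at 46.8, 55.0, 47.5 and 52.5 CPM. In the last of these genes the coefficient of variation was 49.6% in controls and 7.84% at 2 h of wounding. Such narrowing was not general, since the median over the 30 genes was 19% in controls and 22.1% at 2 h of wounding. GRMZM2G104942 stood at 138 to 219 CPM in controls and 28.7 to 41.8 CPM at 2 h of wounding, and GRMZM2G114588 at 87.5 to 139 CPM and 17.9 to 29.5 CPM.

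The lowest relative levels belonged to less abundant genes. This link is partly set by the choice, since with 1 CPM added before the log a less abundant gene needs a deeper fall to be kept. GRMZM2G411766 had 10.5, 10.5, 11.1 and 9.94 CPM in the controls and 0.812, 0.798, 0.888 and 1.26 CPM at 2 h of wounding, 8.94% of control. GRMZM2G165757 had 19.2, 6.87, 11.5 and 15.1 CPM in the controls and 0.517, 0.756, 1.90 and 1.66 CPM at 2 h of wounding, 9.17% of control. GRMZM2G035073 had 18.6, 14, 13.7 and 15.3 CPM in the controls and 1.18, 0.840, 1.86 and 2.09 CPM at 2 h of wounding, 9.67% of control. In each of these 3 genes the highest wounded leaf was well under the lowest control leaf. The exception among the 30 was GRMZM2G044851, whose control leaf 2 had 17.4 CPM and whose wounded leaf 4 had 17.5 CPM, while its other wounded leaves had 2.40 to 8.44 CPM and its other control leaves 40.2 to 67.2 CPM.

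The threshold at -2 has no gap in the values. Just inside it were GRMZM2G411668 with D of -2.01, GRMZM2G330453 with -2.07 and GRMZM2G423202 with -2.08. Just outside it, with D within 0.01 of -2, were GRMZM2G362303, GRMZM2G342738 and GRMZM2G317386, at control means of 32.1, 9.17 and 8.82 CPM and wounded means of 7.31, 1.51 and 1.43 CPM. At the *T. urticae* threshold of -1, GRMZM2G039246, GRMZM2G114588 and GRMZM2G124179 lay just inside at -0.99, -0.98 and -0.96, and GRMZM2G040452, GRMZM2G052667 and GRMZM2G005146 just outside at -1.01, -1.05 and -1.05. Genes on either side of each threshold thus had nearly equal values.

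The sources used here say little about what these genes do. The maize name table held no gene descriptions. It paired 20 of the 30 with an entry, 66.7% against 67.0% of the genes tested, and all 20 are listed as protein coding, but 19 of them carry only locus or clone numbers. GRMZM2G111300 is listed with the synonym ZIP4, and no role was taken from that name. GRMZM2G039246 is paired, in the part of the study's ortholog list that was read here, with the Arabidopsis gene AT3G16360, which in Arabidopsis encodes AHP4, a histidine phosphotransfer protein of the family that passes cytokinin signals from receptors in the membrane to response regulators in the nucleus. None of the 30 was among the 204 genes whose names match a list of transcription factor families, of which 143 were tested and 20 were called lower at 2 h of wounding and 40 higher, beside 8.47% and 17% of all tested genes, and 4 lower and 14 higher at 24 h, beside 0.81% and 7.8%. The other 10 name lists, for auxin, other growth hormones, cell wall, photosynthesis and light, clock and flowering, kinases and receptors, transport, cell division and cytoskeleton, surface lipids and stomata, matched 0 to 9 genes of the whole table and none of the 30. Since the lists match by name, and only 1 of the 30 has a name other than a number, these counts of 0 say nothing about what the genes do. The genes did not sit side by side in the genome. Of the 20 that could be placed in the gene order of the later maize assembly, none neighboured another, and the nearest pair was 108 genes apart.

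The main question that the choice of the genes did not settle is whether they were still low a day after the damage. By 24 h of wounding 29 of the 30 had a higher mean than at 2 h, and 1 did not. The mean level at 24 h was 9.75% to 128% of control with a median of 67.4%. From the leaves of 2 h to the separate leaves of 24 h, 8 genes had regained over 75% of what they had lost, 11 had regained 50% to 75%, 6 had regained 25% to 50%, and 5 less than 25%. The share regained ran from -6.35% for GRMZM2G349791 to 133% for GRMZM2G167253, with a median of 62.8%. These shares use the 2-h leaves that chose the genes, and they are given without a test.

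**Figure D2:**
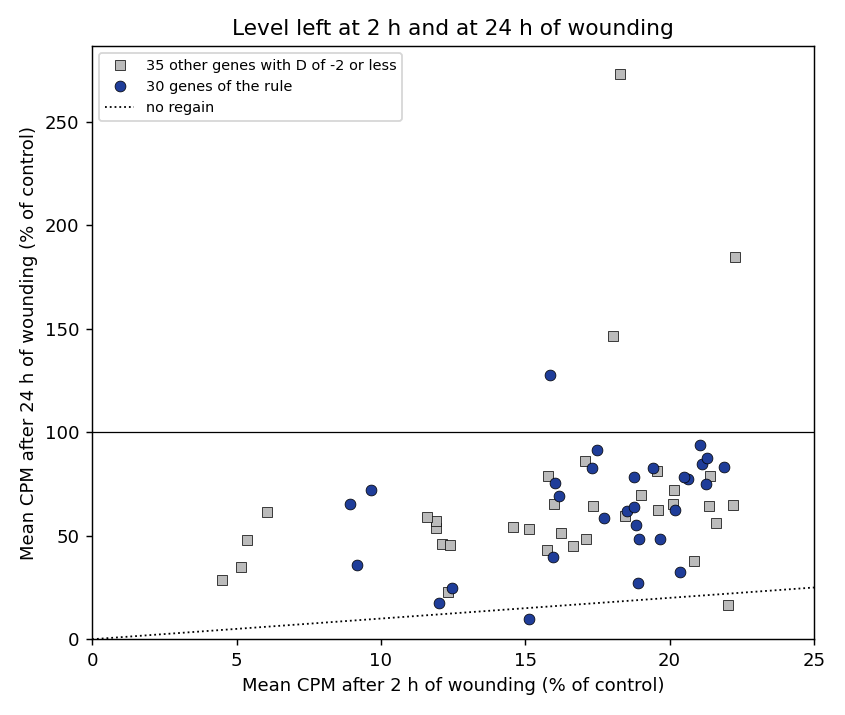
Mean CPM left at 2 h of wounding (horizontal axis, % of the control mean) and at 24 h of wounding (vertical axis, % of the control mean) for the 30 genes (blue circles) and the 35 other genes with D of -2 or lower at 2 h (gray squares); the dotted line marks equal levels at both times and the solid line the control level. The 30 genes lie within 8.94% to 21.9% at 2 h but spread from 9.75% to 128% at 24 h, with 1 of them, GRMZM2G349791, below the dotted line.

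Measured against the controls, 8 of the 30 genes were called lower at 24 h of wounding and 0 higher, by edgeR's quasi-likelihood test with limits of 0.01 on the Benjamini-Hochberg adjusted p and 1 on the absolute log2 fold change. Of all tested genes, 0.81% were called lower and 7.8% higher. The log2 fold change was below 0 in 29 of the 30 genes, against 49.5% of all tested genes, and its median was -0.57, against 0.00 over all tested genes. At an unadjusted p below 0.05, 21 of the 30 were lower and none was higher, against 20.5% of all tested genes that were lower, and DESeq2 likewise called 8 lower and 0 higher. In 19 of the 30 each leaf wounded for 24 h lay below each control leaf, against 12.5% of all tested genes. The 4 control leaves are those that the choice of the genes used, and a gene with high values in them was more likely to be chosen and to appear low here, so these shares are not independent of the choice. Control replicate 1 was the highest control leaf for 17 of the 30 genes, and without that leaf 5 of the 30 remained called lower at 24 h of wounding.

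The fullest persistence was in GRMZM2G349791, which was no higher at 24 h than at 2 h. Its control leaves had 16.7, 9.43, 6.37 and 3.36 CPM, its leaves at 2 h of wounding 1.26, 2.06, 1.17 and 0.946 CPM, and those at 24 h 0.774, 0.721, 0.832 and 1.17 CPM. All 8 wounded leaves lay under the lowest control leaf, and the log2 fold change at 24 h was -3.36 (SE 0.56, n = 4 per group, adjusted p = 4.81e-05, edgeR). GRMZM2G070797 had 19.3, 3.56, 6.58 and 10.9 CPM in the controls and a narrow 1.64, 1.77, 1.61 and 1.96 CPM at 24 h of wounding. Its log2 fold change was -2.53 (SE 0.58, adjusted p = 0.00154, edgeR), and without control replicate 1 it was -2.03 with an adjusted p of 0.0103, past the 0.01 limit. The spread of this gene was thus large in undisturbed leaves, with a coefficient of variation of 67.9%, and small after 24 h of wounding, at 9.13%. Over all the chosen genes the median coefficient of variation was 19% both in controls and at 24 h of wounding.

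GRMZM2G039246, the gene paired with AHP4, was also low at both times. It had 11.8, 7.59, 10.4 and 7.69 CPM in the controls, 0.480, 1.34, 1.82 and 1.02 CPM at 2 h of wounding and 1.70, 2.98, 3.04 and 1.61 CPM at 24 h. Every wounded leaf lay below every control leaf, and the log2 fold change at 24 h was -2.0 (SE 0.46, adjusted p = 0.00169, edgeR). GRMZM2G068519 had 37.5, 47.8, 56.6 and 60.0 CPM in the controls, 3.65, 3.61, 21.1 and 9.85 CPM at 2 h and 8.49, 22.4, 13.3 and 10.3 CPM at 24 h. Its leaves at the times of wounding overlapped each other and stayed below every control leaf, with a log2 fold change at 24 h of -1.89 (SE 0.44, adjusted p = 0.00167, edgeR). These 2 genes had regained 14.3% and 9.97% of the decline.

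The remaining called genes had come back further. GRMZM2G165757 stood at 5.20, 3.93, 5.74 and 4.04 CPM at 24 h of wounding, 36.0% of control, with a log2 fold change of -1.47 (SE 0.36, adjusted p = 0.00245, edgeR). The adjusted p passed 0.01 without control replicate 1 (0.0120) and without replicate 4 of wounding 24 h (0.0104). GRMZM2G104783 had 19.6, 10.6, 14.6 and 12.8 CPM in the controls, 1.88, 1.55, 2.46 and 3.31 CPM at 2 h and 5.73, 6.88, 5.71 and 4.71 CPM at 24 h, with a log2 fold change at 24 h of -1.32 (SE 0.21, adjusted p = 3.01e-05, edgeR). Its 24-h leaves thus lay between the 2-h leaves and the controls without touching either. AC210013.4_FG014 had 47.9, 25.5, 39.5 and 33.8 CPM in the controls and 13.3, 17.5, 21.4 and 18.8 CPM at 24 h, with a log2 fold change of -1.05 (SE 0.22, adjusted p = 7.55e-04, edgeR). GRMZM2G412604, the most abundant of the 8, had 165, 276, 116 and 137 CPM at 24 h, so that 1 leaf overlapped its controls of 236 to 506 CPM, and its log2 fold change was also -1.05 (SE 0.24, adjusted p = 0.00137, edgeR). These last 2 genes were at the edge of the fold limit, and scaling by library totals alone gave log2 fold changes of -0.88 and -0.91, inside it.

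**Figure D3:**
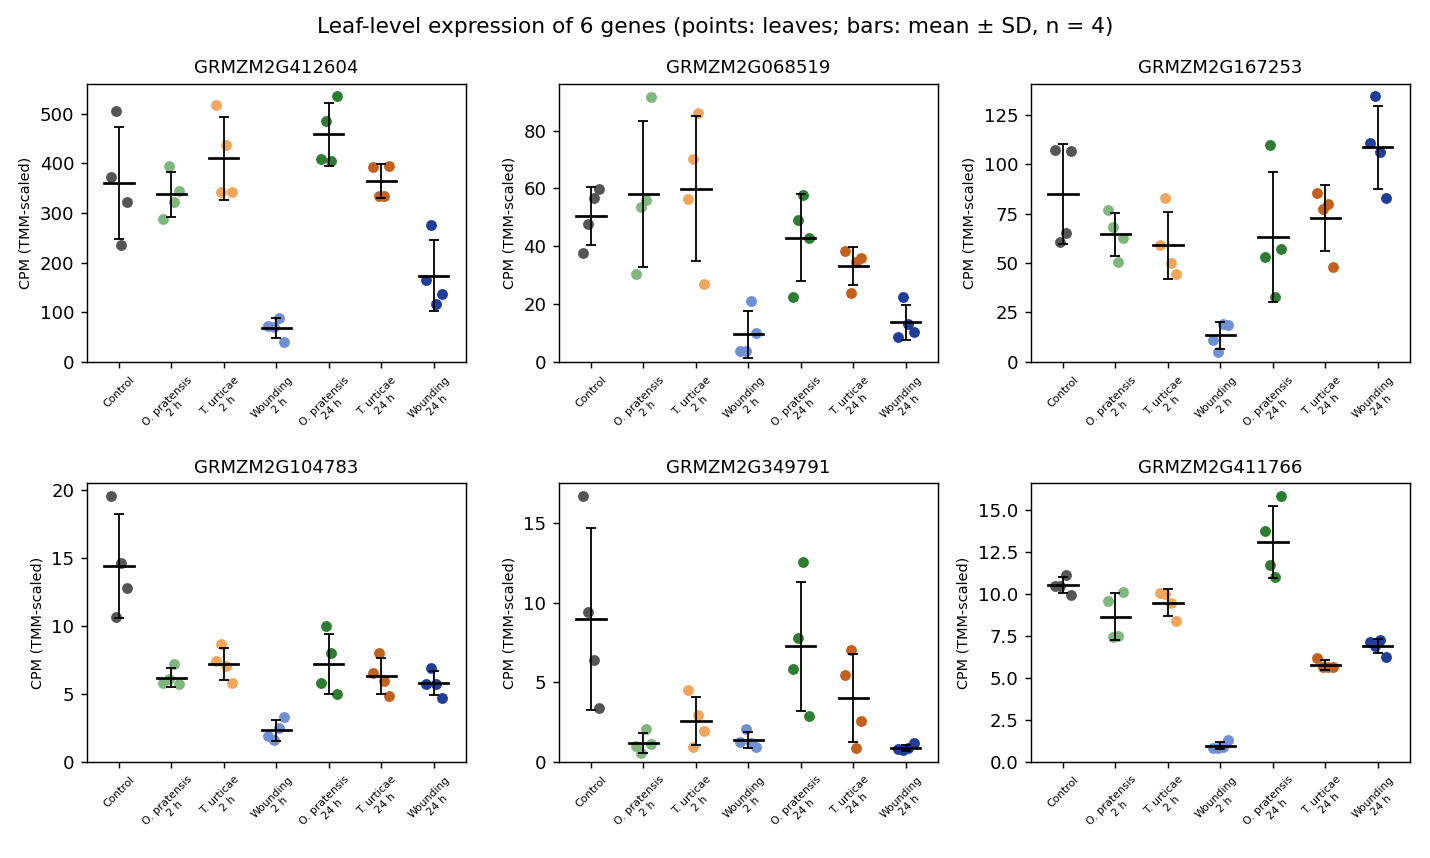
CPM (vertical axes, TMM-scaled, each starting at 0) of 6 genes in the 7 groups; each point is a leaf, and the bars give the mean and SD of 4 leaves. GRMZM2G349791 and GRMZM2G068519 stay low at 24 h of wounding, while GRMZM2G167253, at 82.8 to 134 CPM, is back in the range of its controls or above it.

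Beside the 8 called genes, 5 had an adjusted p of at most 0.01 by edgeR with a fold change under 2-fold. With them 13 of the 30 were lower at that limit, beside 1829 of the 22339 genes tested, of which 181 were called. These counts also share the control leaves with the choice. The 5 genes were GRMZM2G095811 with a log2 fold change of -0.86 at 24 h of wounding, GRMZM2G021106 with -0.77, GRMZM2G111300 with -0.70, GRMZM2G473511 with -0.64 and GRMZM2G411766 with -0.61. The last of these shows how small a difference the tight genes resolve, since its leaves had 7.16, 6.92, 7.23 and 6.26 CPM at 24 h of wounding and 9.94 to 11.1 CPM in the controls. Conversely, GRMZM2G044851 had a log2 fold change of -1.62 (SE 0.51) with an adjusted p of 0.0169 by edgeR, and was not called. Its leaves at 24 h of wounding, at 17.2, 10.5, 16.9 and 13.2 CPM, lay just under the lowest control leaf of 17.4 CPM and far under the other 3.

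At the other end stood the 4 genes with the highest log2 fold changes at 24 h of wounding, none of them past an adjusted p of 0.05. GRMZM2G167253 had 107, 60.9, 65.4 and 107 CPM in the controls, 10.9, 5.08, 19.2 and 18.8 CPM at 2 h of wounding and 111, 134, 106 and 82.8 CPM at 24 h. It was the only one of the 30 with a log2 fold change above 0, at 0.35 (SE 0.32, adjusted p = 0.418, edgeR). GRMZM2G176225 had 86.6, 72.8, 84.6 and 80.7 CPM in the controls, 13.4 to 19.6 CPM at 2 h and 77.3, 76.0, 82.6 and 68.7 CPM at 24 h, with a log2 fold change of -0.09 (SE 0.09, adjusted p = 0.468, edgeR). This gene had regained 92.2% of the decline. GRMZM5G836174 and GRMZM2G114588 had log2 fold changes of -0.13 (SE 0.38) and -0.19 (SE 0.25), whose wider errors leave room for larger differences either way. By contrast the most abundant gene, GRMZM2G154223, had 312, 339, 311 and 265 CPM at 24 h, each leaf under its lowest control of 396 CPM, and a log2 fold change of -0.41 (SE 0.15, adjusted p = 0.0341, edgeR).

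The next question was whether 2 h of mite feeding was accompanied by lower levels of the same genes. The differences were small in most of them. At 2 h of *O. pratensis* 2 of the 30 genes were called lower and 0 higher by edgeR, and 0.0492% of all tested genes were called lower and 5.25% higher. DESeq2 also called 2 lower and 0 higher. The log2 fold change was below 0 in 29 of the 30, against 52.6% of all tested genes, with a median of -0.35, against -0.01. At an unadjusted p below 0.05, 16 were lower and 0 higher, against 5.8% of all tested genes that were lower. In 8 of the 30 each leaf lay below each control leaf, against 2.65%. At 2 h of *T. urticae* 1 gene was called lower and 0 higher by edgeR, against 0.00895% and 2.47% of all tested genes, and DESeq2 gave the same counts. There the log2 fold change was below 0 in 28 genes, against 49.8%, with a median of -0.35, against 0.00. At an unadjusted p below 0.05, 14 were lower and 0 higher, against 3.53% that were lower, and 5 genes had each leaf below each control leaf, against 1.16%. Both comparisons share the controls with the choice of the genes and with each other, so the likeness of their medians is no independent evidence.

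GRMZM2G349791 had the largest difference with mites. It had 0.955, 0.556, 2.06 and 1.08 CPM at 2 h of *O. pratensis*, below every control leaf, with a log2 fold change of -2.92 (SE 0.57, adjusted p = 4.55e-04, edgeR). Its level there, 13% of control, was close to the 15.1% at 2 h of wounding. At 2 h of *T. urticae* it had 4.48, 0.942, 2.95 and 1.91 CPM, which overlapped the controls in 1 leaf, and a log2 fold change of -1.80 (SE 0.52, adjusted p = 0.0387, edgeR), which was not called.

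GRMZM2G104783 was the gene called with both mites. It had 5.77, 6.12, 7.19 and 5.69 CPM at 2 h of *O. pratensis*, with a log2 fold change of -1.22 (SE 0.22, adjusted p = 1.54e-04, edgeR), and 7.39, 8.63, 7.06 and 5.76 CPM at 2 h of *T. urticae*, with a log2 fold change of -1.0 (SE 0.21, adjusted p = 0.00298, edgeR). None of these 8 leaves reached the lowest control leaf of 10.6 CPM. The *T. urticae* call sat on the fold limit and was lost, among other settings, without control replicate 1, where the log2 fold change was -0.81 and the adjusted p 0.0265, without control replicate 3 (-0.98, 0.0106), and without *T. urticae* replicate 3 (-1.0, 0.0119) or replicate 4 (-0.90, 0.0235). In the leaves of 24 h of *O. pratensis*, *T. urticae* and wounding the gene had 5.01 to 9.95, 4.83 to 7.97 and 4.71 to 6.88 CPM, so that it was below its controls in all 24 treated leaves.

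**Figure D4:**
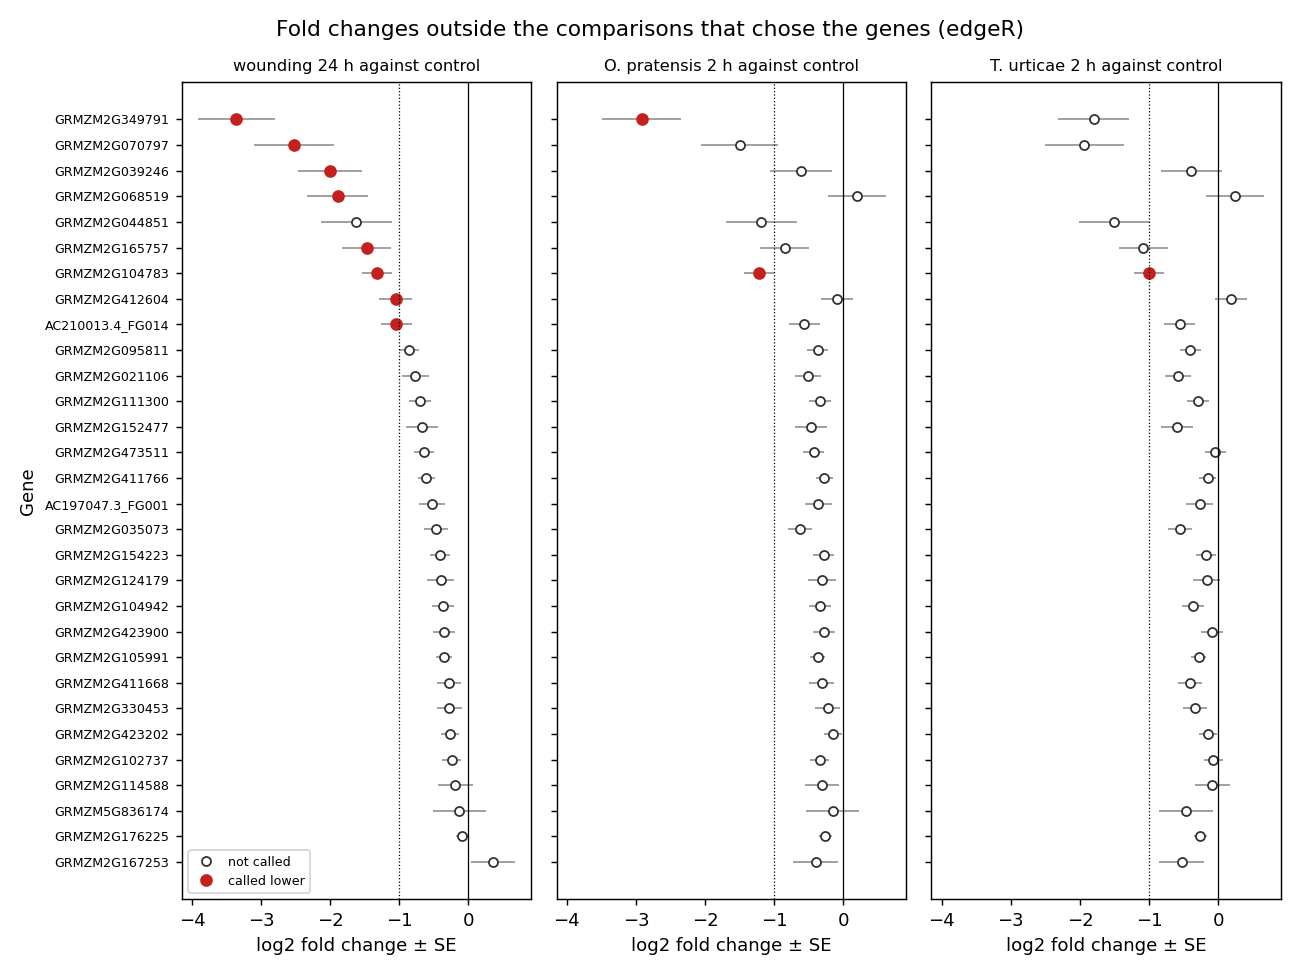
Log2 fold change with its SE (horizontal axes) of the 30 genes (vertical axis) in the 3 comparisons with the controls that did not choose them; filled points are called lower, and the dotted line marks a log2 fold change of -1. At 24 h of wounding 8 points are filled and 29 lie below 0, at 2 h of *O. pratensis* 2 are filled, and at 2 h of *T. urticae* 1 is filled.

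Other genes low with both mites at 2 h were not called. GRMZM2G070797 had 3.78, 3.34, 1.63 and 5.37 CPM with *O. pratensis* and 2.08, 4.45, 2.55 and 1.58 CPM with *T. urticae*, with log2 fold changes of -1.5 (SE 0.56, adjusted p = 0.0999) and -1.93 (SE 0.58, adjusted p = 0.0507) by edgeR. Its control leaf 2, at 3.56 CPM, lay within both ranges. GRMZM2G044851 had log2 fold changes of -1.19 (SE 0.51) and -1.5 (SE 0.52) and GRMZM2G165757 of -0.84 (SE 0.35) and -1.08 (SE 0.36), again with a control leaf 2 inside the mite values. By contrast GRMZM2G068519 had 30.5, 53.5, 56.1 and 91.8 CPM with *O. pratensis* and 56.4, 70.2, 86.2 and 27 CPM with *T. urticae*, around its controls of 37.5 to 60.0 CPM. This gene, still at 27% of control after 24 h of wounding, had log2 fold changes of 0.20 (SE 0.42) and 0.25 (SE 0.42) at 2 h of the mites. GRMZM2G412604 was likewise near its controls, with log2 fold changes of -0.09 (SE 0.24) and 0.19 (SE 0.24).

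Between the mites at 2 h no difference was detected in the 30 genes. This comparison uses none of the libraries that chose them. No gene of the 30 was called lower or higher with *O. pratensis* than with *T. urticae* by edgeR or by DESeq2, against 0.0% and 0.68% of all tested genes. By either tool 1 gene of the 30 had an unadjusted p below 0.05, against 8.05% of all tested genes by edgeR. That gene was GRMZM2G473511, at 22.2, 28.5, 34.7 and 27.5 CPM with *O. pratensis* and 40.0, 31.8, 34.5 and 41.4 CPM with *T. urticae*, a log2 difference of -0.39 (SE 0.15, adjusted p = 0.311, edgeR). The log2 differences of the 30 ran from -1.12 (SE 0.60) in GRMZM2G349791 to 0.43 (SE 0.60) in GRMZM2G070797, with a median of -0.04. In these last genes a difference of 2-fold lay within 2 SE, and what size of difference 4 leaves can detect was not tested.

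At 24 h of the mites the levels were bounded by the choice of the genes and are given as a description. The mean was 41.0% to 127% of control at 24 h of *O. pratensis*, with a median of 66.9%, and 37.3% to 101% at 24 h of *T. urticae*, with a median of 54.3%. Against the controls 1 of the 30 was called lower with *O. pratensis*, GRMZM2G104783, beside 0.824% of all tested genes. With *T. urticae* 10 were called lower, beside 4.09% of all tested genes, although each had D above -1. D rests on library totals and a pseudocount of 1, and the test on TMM-scaled counts. Both counts of calls use values and control leaves that chose the genes, so their distance from the shares of all tested genes is not a test result. Those 10 were GRMZM2G154223, GRMZM2G114588, GRMZM2G473511, AC210013.4_FG014, GRMZM2G021106, GRMZM2G423900, GRMZM2G035073, GRMZM2G104783, GRMZM2G411668 and GRMZM2G124179. Within these bounds individual genes differed in form. GRMZM2G411766 had 13.7, 11.7, 11 and 15.8 CPM at 24 h of *O. pratensis* and 6.18, 5.62, 5.61 and 5.61 CPM at 24 h of *T. urticae*, on either side of its controls of 9.94 to 11.1 CPM except for 1 *O. pratensis* leaf within them. GRMZM2G412604 had 408, 485, 404 and 535 CPM and 393, 334, 334 and 394 CPM, and GRMZM2G176225 had 73.5 to 84.6 CPM and 78.6 to 82.7 CPM, each within or near the control range.

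The 30 genes also varied between leaves of one group, and some shared the order of their leaves. How often such orders occur among all tested genes was not counted, so they are not a trait particular to these genes. Control replicate 1 was the highest control leaf for 17 genes and replicate 2 the lowest for 15. At 24 h of *T. urticae* replicate 4 was the lowest leaf for 19 genes, and at 2 h of *T. urticae* replicate 4 was also the lowest for 19. Among the control leaves, 6 genes had replicate 1 highest, then 3, 4 and 2. In 6 other genes, GRMZM2G044851, GRMZM2G070797, GRMZM2G104942, GRMZM2G152477, GRMZM2G165757 and GRMZM2G167253, replicate 1 was highest, then 4, 3 and 2. The first 2 of these shared an order at 24 h of *T. urticae* as well. There GRMZM2G044851 had 8.59, 41.2, 47.1 and 8.42 CPM and GRMZM2G070797 had 2.5, 6.98, 11.4 and 1.16 CPM, so that in both genes replicates 2 and 3 lay near the control mean and replicates 1 and 4 were near the levels of wounded leaves. GRMZM2G165757 had 5.95, 10.7, 9.53 and 3.55 CPM in the same leaves, and GRMZM2G039246 had 1.82, 7.02, 4.04 and 1.08 CPM. The median coefficient of variation over the 30 genes was 19% in the controls, against 16.6% over all tested genes.

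**Figure D5:**
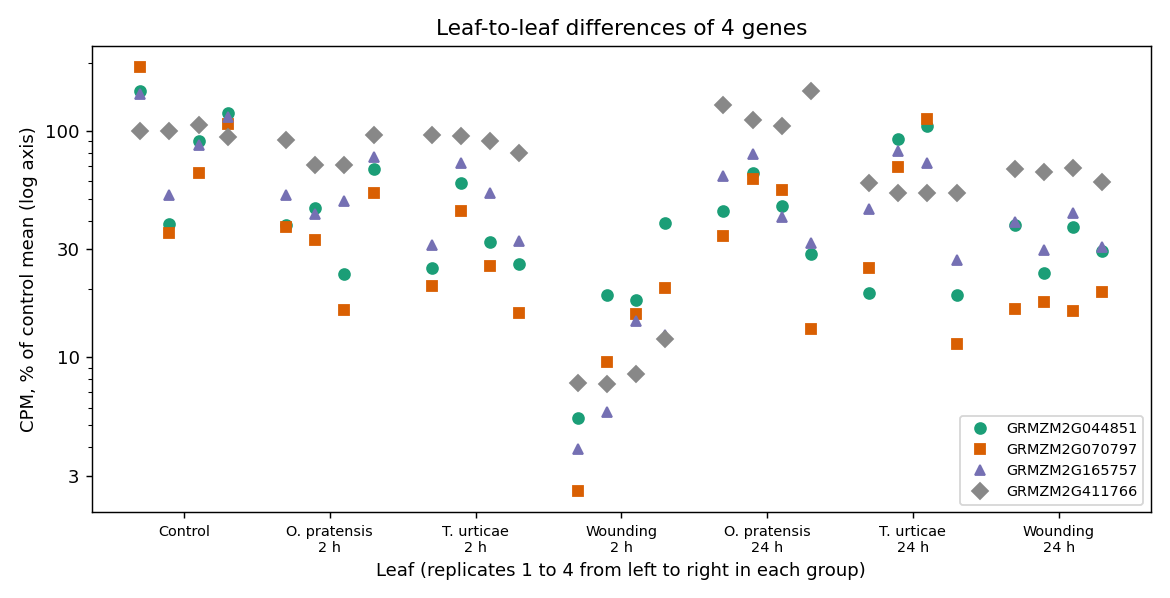
CPM as % of the control mean (vertical axis, log scale) of 4 genes in each of the 28 leaves (horizontal axis, replicates 1 to 4 from left to right within each group). GRMZM2G044851, GRMZM2G070797 and GRMZM2G165757 share high and low leaves in the controls and at 24 h of *T. urticae*, while GRMZM2G411766, with a coefficient of variation of 4.59% in controls, is nearly level within those groups.

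The 35 genes that reached the wounding threshold but were left out because of their values with mites at 24 h serve as the nearest comparison. At 24 h of wounding 7 of the 35 were called lower and 0 higher, with a median log2 fold change of -0.76, beside 8 of 30 and -0.57. At 2 h of *O. pratensis* and of *T. urticae* 0 of the 35 were called by edgeR, with 21 and 13 at an unadjusted p below 0.05, while DESeq2 called 2 and 3 lower. The medians were -0.55 and -0.43, beside -0.35 in each case for the 30. Of all tested genes, edgeR called 0.81% lower at 24 h of wounding, 0.0492% at 2 h of *O. pratensis* and 0.00895% at 2 h of *T. urticae*. At an unadjusted p below 0.05 by edgeR, 5.8% and 3.53% of all tested genes were lower at 2 h of the mites. Whether the groups of genes differ was not tested, and all of these values share the control leaves.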

How the data were processed

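Each library held poly(A) RNA of one leaf. The authors aligned the reads to the maize genome B73 RefGen_v3 with STAR 2.5.2b, counted uniquely aligned reads per gene with HTSeq 0.6.0, and deposited the counts without normalization. Groups were taken from the sample labels. Totals of 14721310 to 32891100 counts set the precision, and reads carry no molecular identifiers.

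The counts were fitted in R 4.3.3 with edgeR 4.0.16 (filterByExpr, TMM, 1 quasi-likelihood model of all 28 libraries with 1 mean per group), which tested 22339 genes, with Benjamini-Hochberg adjustment over all of them. The limits for a call were 0.01 on the adjusted p and 1 on the absolute log2 fold change. The SE was derived from the test, as the absolute log2 fold change over the square root of the quasi-likelihood F, and is approximate. Single-gene counts of non-overlap compare all 4 leaves of each group.

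The members and lists were chosen with earlier results of these data known. The genes named were the 6 of highest control CPM, the 6 of lowest D, those nearest the threshold, and the called genes at 24 h of wounding and at 2 h of each mite; other genes were named after their values were seen. Names came from a table of Zm-B73-REFERENCE-NAM-5.0, which matched 20 members. That table's gene order was used to see which members neighbour each other. No coordinates or sequences are printed, and planned promoter motif counts were not run.

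On simulated counts for wounding 24 h against control (21024 genes tested, 200 changed 4-fold), 99.5% of the changed genes were called, with 1 false call. Alternatives were DESeq2 1.42.0, RLE factors, library totals without TMM (chosen after seeing the data), no filter, an adjusted p of 0.05, only the 8 samples compared, the replicate number as a block, other settings of the rule, and leaving out each replicate.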

Additional observations from a re-analysis of the deposited data

Results flagged for a closer look

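In 8 of the 210 sets of 4 leaves (30 genes in 7 groups), 1 leaf stood so far from the other 3 that its gap, as a share of the whole range, passed Dixon's critical value. Independent, normally distributed values would give about 1 set in 20. These sets share leaves and come from genes chosen together, so the number was not weighed against chance. GRMZM2G154223 had 299.8 CPM in replicate 4 of 2 h of *T. urticae*, where the others had 379 to 388 CPM. GRMZM2G104942 had 178.1 CPM in replicate 2 of 24 h of *O. pratensis*, against 124 to 133 CPM. GRMZM2G102737 had 84.79 CPM in replicate 3 of 24 h of wounding, against 66.3 to 67.9 CPM. At 2 h of *T. urticae* GRMZM2G021106 had 17.53 CPM in replicate 2, against 11.7 to 12.4 CPM, and GRMZM2G035073 had 13.28 CPM in replicate 3, against 9.31 to 9.87 CPM. GRMZM2G411668, the gene nearest the threshold of the rule, had 17.27 CPM in control replicate 1, against 12.6 to 13.4 CPM in the other controls. GRMZM2G411766 had 6.178 CPM in replicate 1 of 24 h of *T. urticae*, against 5.61 to 5.62 CPM, a gap that stands out because the other leaves were so alike. GRMZM2G039246, the gene paired with AHP4, had 12.14 CPM in replicate 2 of 24 h of *O. pratensis*, against 3.48 to 4.16 CPM, so that this leaf alone lay at the level of the controls.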

How the results depend on the processing

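The number of genes depended on the rule. It was 49 instead of 30 with a pseudocount of 0.5, 180 with D of -1.5 or lower and 5 with D of -2.5 or lower, and 27 to 42 when single leaves were left out. With TMM-scaled CPM it was 23, of which 20 were among the 30, and 20 of the 30 genes were kept whichever leaf was left out. At 24 h of wounding 8 genes were called lower, and 5 to 9 when single leaves were left out, the 5 without control replicate 1. The call of GRMZM2G412604 was lost in 5 settings. The 2 calls at 2 h of *O. pratensis* were kept throughout. At 2 h of *T. urticae* the 1 call became 2 at an adjusted p of at most 0.05, 0 with no filter on low counts and 0 with only the 8 samples compared, and 0 to 1 when single leaves were left out. None of these called genes changed direction, and no gene was called between the mites in any setting. Same-numbered leaves deviated together in only 6 of 16 pairs (correlations of -0.15 to 0.31, 4 best with their own number). The study used a randomized block design, and these correlations cannot show whether the numbers mark its blocks. With the replicate number as a block, the counts of calls lower were 8 at 24 h of wounding, 2 and 1 at 2 h of *O. pratensis* and *T. urticae*, and 0 between the mites. Precision differed between genes of like abundance, with an SE at 24 h of wounding of 0.12 for GRMZM2G411766 and 0.58 for GRMZM2G070797, both near 10 CPM.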
